A study of Homo sapiens with 6 samples.

Results

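Solute carriers are membrane proteins that move nutrients, ions and metabolites across cell membranes. The 102 circular RNAs (circRNAs) described here come from 51 genes of this superfamily, out of 9857 circRNAs and 3742 host genes in all. A circRNA was taken when it had a single host gene whose symbol starts with SLC and a digit or with SLCO, and the zinc transporters of the SLC39A and SLC30A families were left out. One more circRNA, with SLC35A3 and a second gene as hosts, was not taken. The rule reads symbols only, so it also took SLC4A1AP, which encodes an adaptor protein and not a transporter.

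The libraries were made from BEAS-2B, a human line immortalised from the epithelium of a bronchus. For 20 weeks the cultures received cadmium at 2.0 µM (the cadmium group, 3 libraries) or at 0.0 µM (the control group, 3 libraries), and no other agent or genotype is labelled. RNase R, which degrades linear RNA, was applied before sequencing, and each circRNA was counted by the reads that cross its back-splice junction, so the values are amounts of circles relative to other circles and not amounts of the transporters' mRNAs. Separate cultures are not stated for the libraries of a group, so the spread behind each p-value may be technical. Since the RNA came from whole cultures, fewer cells with a circle and less of it per cell cannot be told apart.

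A circRNA forms when the spliceosome joins the end of a downstream exon back to the start of an upstream exon. The ring that results has no free ends and resists exonucleases, and it usually lacks part of the reading frame of its host. Cadmium has no carrier of its own in animal cells; it is known to enter through transporters for other divalent metals, among them the iron transporter DMT1 (SLC11A2) and zinc transporters of the SLC39A family.

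Totals ran from 133185 to 225769 junction reads per library, and the solute carrier circles took 1141 to 1873 of them. The table holds no value of 1, and a circle is listed only if it is above 0 in all 3 libraries of a group, so a listed 0 may stand for 1 read. Control libraries 1 and 3 stood apart from the other 4 in how many of the reads at the circles' loci crossed the junction, as given with that measure further on. None of the 14 marker genes of airway epithelium, fibroblasts and leukocytes chosen for a check of the cell type was a circRNA host, so the label could not be checked in these files.

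The circles whose junctions the results turn on are shown as the last 15 exonic bases before the back-splice in lower case and the first 15 after it in capitals, 5′ to 3′ on the transcript strand. The bases were read from GENCODE 29 transcripts (GRCh38), in which the exons are numbered. The first 4 belong to SLC38A1 and use every combination of a pair of upstream ends with a pair of downstream ends, which is why the same capitals and the same lower-case runs recur.
hsa_circ_0000396 (SLC38A1): aatcctactttttctATATTTATTGAGTGT
hsa_circ_0000398 (SLC38A1): tggtcagataaatagATATTTATTGAGTGT
hsa_circ_0000397 (SLC38A1): aatcctactttttctAGTCAAGGAAACTTT
novel_circ_0005212 (SLC38A1): tggtcagataaatagAGTCAAGGAAACTTT
The SLC15A4 and SLC31A1 pairs each share the upstream end and differ in the downstream end, and the SLC7A6 pair shares the downstream end.
hsa_circ_0000462 (SLC15A4): gcgccagagtaatggGTTAAAGATCGAGGT
hsa_circ_0006689 (SLC15A4): cggcctttgctgcagGTTAAAGATCGAGGT
hsa_circ_0088128 (SLC31A1): tcaatacagctggagAATCTTCTGCTGACT
hsa_circ_0088129 (SLC31A1): acacaaaactgttggAATCTTCTGCTGACT
hsa_circ_0005623 (SLC7A6): ctgctgcttgcatatAGTTTATGTGGCCGA
hsa_circ_0007669 (SLC7A6): ctgctgcttgcatatGCCACAGCAAACACA
The last 2 are the SLC2A13 circle, which had the smallest adjusted p among the members, and the leading SLC4A7 circle, which was listed at 0 in 1 control library.
hsa_circ_0007918 (SLC2A13): aagaggttggctcagGCATTGCTTCTATGA
hsa_circ_0006215 (SLC4A7): gaaagaaactgctagGTCATAGAGCTGTAT

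Exonic circles made up 100 of the 102, and 2 were intronic. Both ends lay on exon bounds of 1 GENCODE transcript for 89 of the exonic circles (89.0%), against 94.6% of all exonic circRNAs, and the counts of exons that follow are over these. The median circle joined 3 exons and 447 exonic bases, against 3 exons and 414 bases for all circRNAs. Exon 2 was the first exon of 32 circles (36.0%, against 28.9% of all), exon 1 of none, and the last exon of the transcript was in none. The start codon of the host lay within 19 of 84 circles on a coding transcript (22.6%, against 13.6% of all). Coding sequence filled 63 of the 84 from end to end (75.0%, against 85.4%), and the length of 19 of these 63 was a multiple of 3 (30.2%, against 37.8%). These shares were not tested.

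The question for the expression comparison was whether circles of transporter genes differ after long cadmium exposure. For host genes, reads were summed over their circles, and 40 of the 51 hosts passed the filter on low counts. None of the 40 rose or fell (edgeR quasi-likelihood test, Benjamini-Hochberg adjusted p under 0.05 over all 3008 hosts tested), where 0.233% of all hosts did, 1 higher (0.0332%) and 6 lower (0.199%). An unadjusted p under 0.05 was reached by 5 members, 3 higher and 2 lower, which is 12.5% of the 40 and the same 12.5% as of all hosts. DESeq2 called none either, and 1 member had an unadjusted p under 0.05 there. The libraries of the groups did not overlap for 6 of the 40 members (15.0%), 3 higher and 3 lower, against 19.3% of all hosts (9.31% higher and 10.0% lower). The median log2 fold change was 0.14, with 23 members above 0 and 17 below, beside a median of 0.00 over all hosts.

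Solute carrier circles together took 0.830%, 0.827% and 0.835% of the junction reads in control libraries 1 to 3. In cadmium libraries 1 to 3 they took 0.883%, 0.876% and 0.881%. Every cadmium library was thus above every control library, with a difference of 0.0494 percentage points. Counting error alone is wide beside that: the 95% Wilson interval of control library 1 ran from 0.793% to 0.868% and that of cadmium library 1 from 0.834% to 0.935%. Leaving out the most abundant circle gave a difference of 0.0571 points, and leaving out all SLC38A1 circles gave 0.0474. No test was made of this sum, since the members were chosen with earlier results known.

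**Figure D1:**
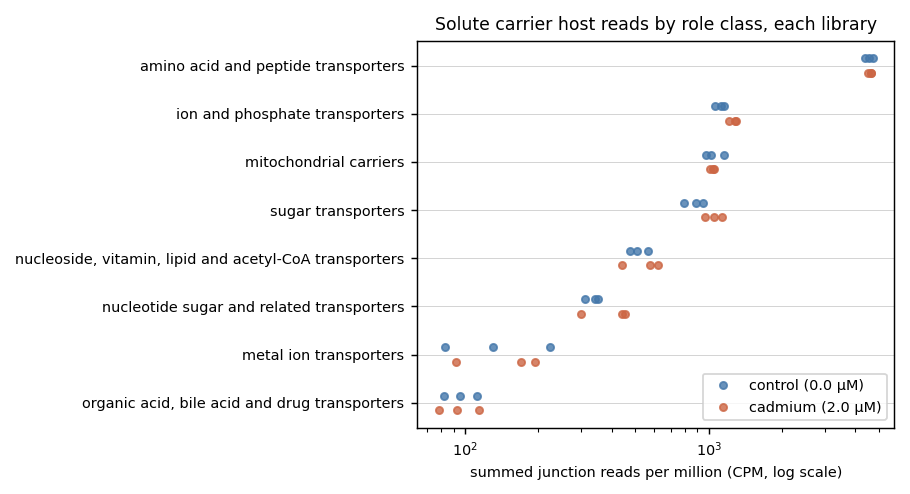
Junction reads of solute carrier hosts summed by role class, scaled to a common library size (CPM, log scale), with 1 point for each library. The control and cadmium points do not overlap for the ion and phosphate transporters and the sugar transporters, and overlap in the other 6 classes. The ion and phosphate sum includes the adaptor gene SLC4A1AP.

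By role, the summed reads of the ion and phosphate class and of the sugar class did not overlap between the groups. No class sum was tested, and among single hosts 19.3% of all those tested did not overlap either. In reads scaled to a common library size with TMM factors (CPM), the 10 ion and phosphate hosts summed to 1115 ± 45.1 (SD, n = 3) in control and 1263 ± 43.8 in cadmium libraries. That class holds SLC4A1AP by its symbol, and without this adaptor gene the other 9 hosts summed to 1063 ± 34.4 and 1192 ± 47.9, also without overlap, with 4 of 8 tested hosts above 0. The 3 sugar transporter hosts summed to 880 ± 77.7 and 1052 ± 87.2. Their mean differences, cadmium minus control, were 153 CPM for SLC45A4, 91.2 for SLC37A3 and -71.7 for SLC2A13. Within each class, members lay on both sides of 0: 5 of the 9 tested ion and phosphate hosts were above 0 and 4 below, and of the 3 sugar transporter hosts 2 were above 0 and SLC2A13 was below. Overlap was seen for the 12 amino acid and peptide hosts (4542 ± 169 and 4586 ± 69.5), the 8 mitochondrial carriers (1053 ± 95.9 and 1037 ± 23.8) and the 6 nucleotide sugar hosts (335 ± 19.8 and 399 ± 87.4). The 5 nucleoside, vitamin, lipid and acetyl-CoA hosts gave 517 ± 45.6 and 545 ± 91.1, the 3 metal ion hosts 146 ± 71.4 and 152 ± 53.0, and the 4 organic acid, bile acid and drug transporter hosts 96.6 ± 15.3 and 95.3 ± 18.4.

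**Figure D2:**
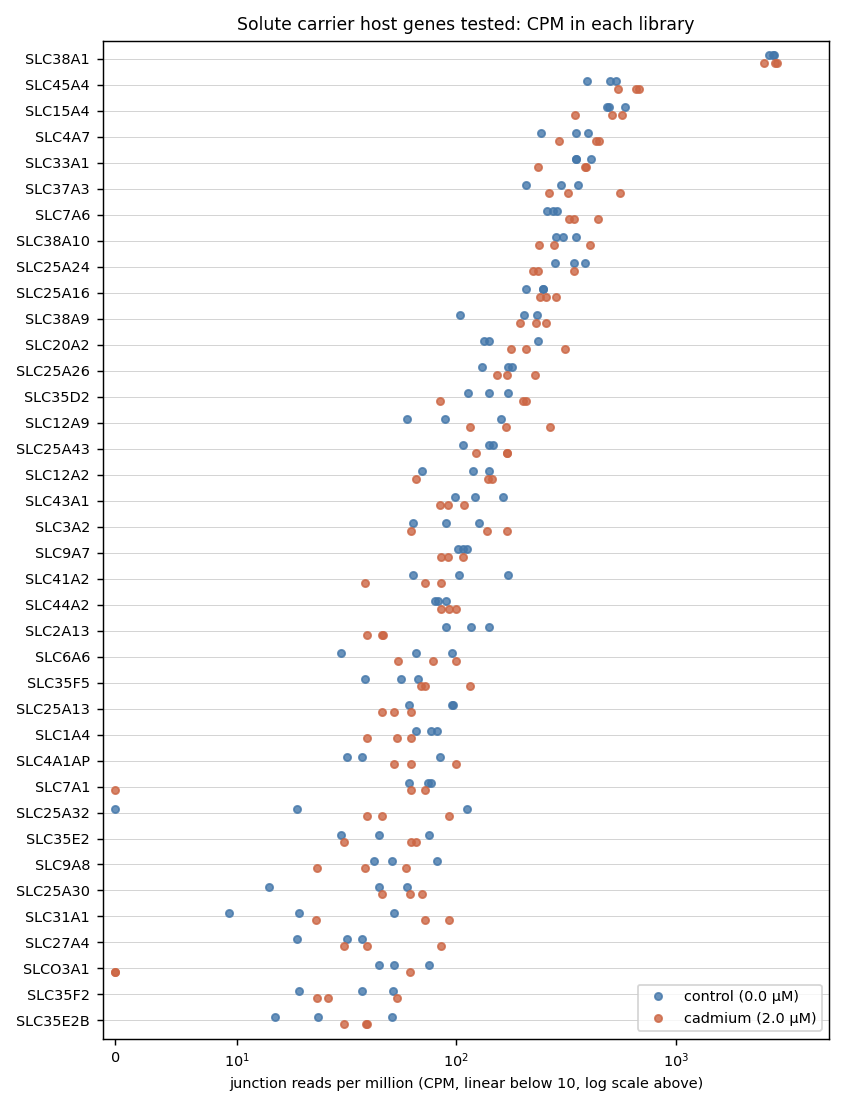
CPM of 38 of the 40 tested solute carrier hosts in each library, linear below 10 and on a log scale above, ordered by mean. SLC38A1 lies between 2509 and 2898 in all 6 libraries, and the cadmium points of SLC2A13 all lie below its control points.

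Amino acid transporters carried most of the reads, and SLC38A1 alone gave 30.8% of all reads of the members. SLC38A1 encodes SNAT1, a sodium-coupled carrier of glutamine and other neutral amino acids. Its 5 circles had 600, 358 and 433 reads in control libraries 1 to 3 and 375, 368 and 385 in cadmium libraries. Scaled to depth this was 2744 ± 73.3 CPM in control and 2742 ± 205 in cadmium libraries, a log2 fold change of -0.00 with a standard error (SE) of 0.11 (edgeR adjusted p 0.993). The sign of that value turned with other size factors, within -0.06 to 0.06 over the alternatives run.

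The same 2 SLC38A1 circles led in all 6 libraries. The circle of exons 2 to 5 of transcript SLC38A1-201 (hsa_circ_0000396, chr12:46229153-46243314, minus strand) had 172 to 316 reads per library, and that of exons 2 to 3 (hsa_circ_0000398, chr12:46239679-46243314) had 98 to 191. Both contain the start codon. The remaining pair begins at an exon further upstream, exon 2 of transcript SLC38A1-202, and ends at the same downstream sites: hsa_circ_0000397 (chr12:46229153-46254936) had 24 to 41 reads and novel_circ_0005212 (chr12:46239679-46254936) 28 to 43. A circle from the other end of the gene, exons 14 to 16 (novel_circ_0005205), had 6 to 9.

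The choice of downstream end went with the upstream end. From the upstream end printed as ATATTTATTGAGTGT, the ratio of the longer to the shorter circle was 1.65, 1.94 and 1.39 in control and 1.20, 1.64 and 1.40 in cadmium libraries. From AGTCAAGGAAACTTT it was 0.953, 0.968 and 0.919 in control and 0.929, 1 and 0.667 in cadmium libraries. The first ratio was the higher in 6 of 6 libraries, and neither ratio held the groups apart. Both ratios come from 1 gene, the pattern was picked after the values were seen, and it was not tested.

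SLC7A6 encodes y+LAT2, which exchanges cationic for neutral amino acids once paired with the heavy chain SLC3A2. Its 4 circles summed to 55, 37 and 45 reads in control and 42, 45 and 68 in cadmium libraries, or 273 ± 14.7 and 371 ± 63.5 CPM. Every cadmium library was above every control library, with a log2 fold change of 0.45 (SE 0.21) that did not pass (edgeR adjusted p 0.384) and was 0.30 without cadmium library 3. The most abundant circle, exons 2 to 4 of SLC7A6-209 (hsa_circ_0005623, chr16:68266593-68275249), had 32, 22 and 23 reads in control and 16, 27 and 26 in cadmium libraries and overlapped between the groups. The single-exon circle that shares its downstream end, exon 4 alone (hsa_circ_0007669, chr16:68274691-68275249), had 13, 10 and 14 reads and 13, 11 and 35, and its log2 fold change of 0.90 (SE 0.42, edgeR adjusted p 0.603) was 0.29 without cadmium library 3. SLC3A2 itself had 93.1 ± 31.5 CPM in control and 123 ± 55.3 in cadmium libraries, which overlapped.

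SLC15A4 encodes a lysosomal carrier of histidine and small peptides. Exon 2 alone gave its main circle (hsa_circ_0000462, chr12:128814775-128815070, minus strand, 296 bases), with 78, 45 and 76 reads in control and 34, 60 and 82 in cadmium libraries, and these overlapped. Exons 2 to 5 gave the other (hsa_circ_0006689, chr12:128808788-128815070, 712 bases), with 28, 20 and 16 reads in control and 11, 7 and 5 in cadmium libraries. All 3 cadmium libraries were below all 3 control libraries for the longer circle, with a log2 fold change of -1.18 (SE 0.41) that did not pass (edgeR adjusted p 0.432). For the shorter circle the value was 0.08 (SE 0.25). As a share of the reads of both, the longer circle made up 26.4%, 30.8% and 17.4% in control libraries and 24.4%, 10.4% and 5.75% in cadmium libraries, so the shares overlapped. SLC15A4 as a host stood at 522 ± 55.8 and 476 ± 114 CPM.

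Other amino acid carriers gave smaller or overlapping values. SLC38A10 had 314 ± 33.2 CPM in control and 307 ± 86.9 in cadmium libraries. SLC38A9, the lysosomal arginine sensor that acts on mTORC1, had 181 ± 68.0 and 227 ± 29.9, and control library 2 was low at 104. Its leading circle, exons 8 to 12 of SLC38A9-202 (hsa_circ_0008731), gave 50%, 57.1% and 40.6% of the gene's junction reads in control and 36.4%, 33.3% and 40% in cadmium libraries, which did not overlap. The taurine transporter SLC6A6, the leucine carrier SLC43A1 and the cationic carrier SLC7A1 each had 1 circle and groups that overlapped. Those of SLC1A4, a carrier of alanine and serine, did not: 74.6 ± 8.31 and 51.5 ± 11.5 CPM, on 6 to 14 reads a library (edgeR adjusted p 0.653). SLC7A11, the cystine importer, is not among the hosts listed.

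**Figure D3:**
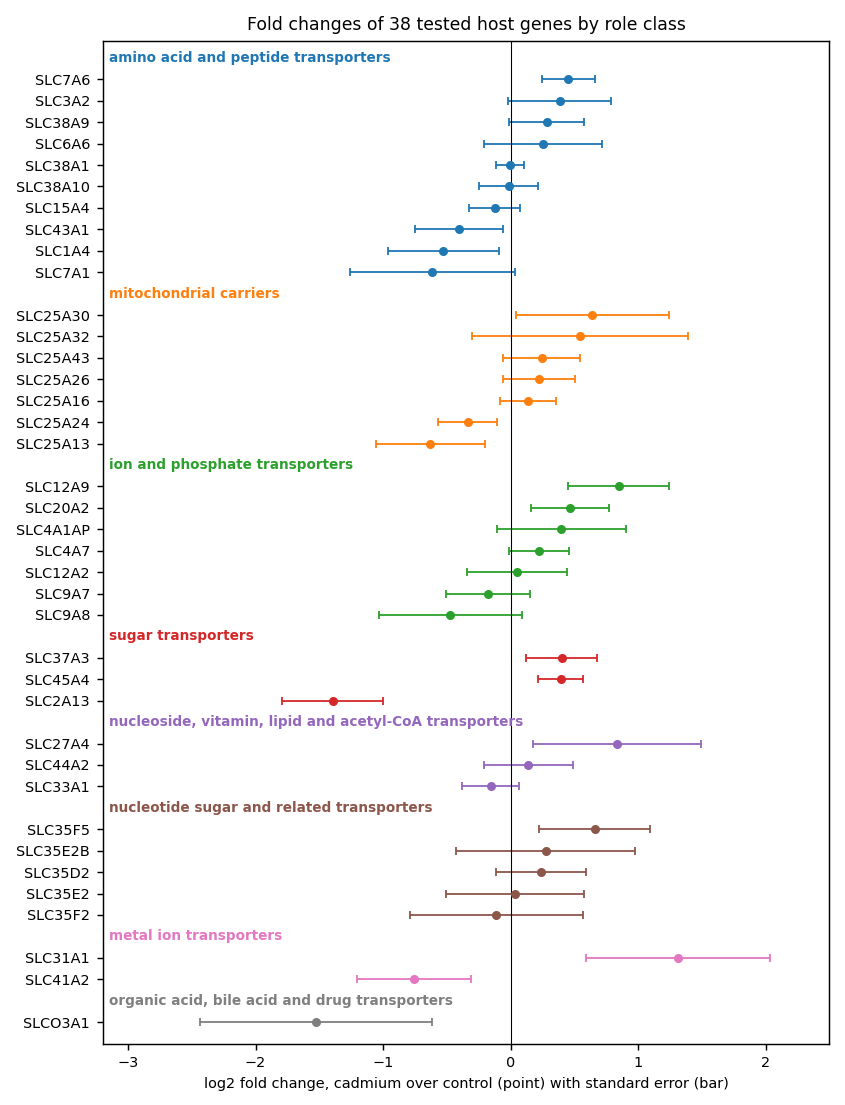
The log2 fold change of cadmium over control (points) with its standard error (bars) for 38 of the 40 tested hosts, grouped by role class. Members lie on both sides of 0 in most classes, and none passed the adjusted threshold.

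SLC2A13 had the lowest p among the sugar class and among all members. It encodes HMIT, a proton-coupled carrier of myo-inositol. Its only circle, exons 2 to 3 (hsa_circ_0007918, chr12:40028301-40048210, minus strand, 369 coding bases), had 25, 12 and 22 reads in control and 6, 6 and 6 in cadmium libraries. All cadmium libraries were below all control libraries, at 115 ± 25.4 and 43.8 ± 4.08 CPM, and the log2 fold change was -1.40 (SE 0.40, edgeR adjusted p 0.203). Reads of the locus that did not cross the junction numbered 3, 11 and 10 in control and 0, 2 and 5 in cadmium libraries. The adjusted p ran from 0.157 to 0.719 over the alternatives, with fold changes from -1.54 to -1.04.

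SLC45A4, of a family related to sucrose transporters, was the second most abundant host. Its circle (hsa_circ_0001829, chr8:141253989-141254629, minus strand) had 114, 67 and 62 reads in control and 85, 89 and 84 in cadmium libraries. The ends of this circle did not both lie on exon bounds of the same GENCODE transcript, so no exon numbers are given. At 476 ± 72.2 and 629 ± 71.3 CPM the groups did not overlap, but the gap between the highest control library (534) and the lowest cadmium library (547) was small. The host's log2 fold change of 0.39 (SE 0.18, edgeR adjusted p 0.382) did not pass. SLC37A3, of the sugar-phosphate exchanger family, had 4 circles and 288 ± 74.8 and 379 ± 154 CPM. Its groups overlapped, and its log2 fold change of 0.40 was 0.00828 without cadmium library 3 and 0.85 without control libraries 1 and 3.

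Among ion transporters, SLC9A7 and SLC9A8, sodium-proton exchangers of internal membranes, had log2 fold changes of -0.18 and -0.47, with groups that overlapped for each. SLC12A9, of the cation-chloride cotransporter family, had 19, 8 and 25 reads in control and 15, 22 and 41 in cadmium libraries, most of them from a circle of exon 5 alone (hsa_circ_0007639, chr7:100856868-100857176, 309 bases). Its log2 fold change of 0.85 (SE 0.39, edgeR adjusted p 0.394) came with groups that overlapped. It ran from 0.47 without cadmium library 3 to 1.27 without control library 3, and was 1.61 without control libraries 1 and 3. The phosphate transporter SLC20A2 had 170 ± 56.9 and 232 ± 71.1 CPM, also overlapping. Its paralog SLC20A1 is not among the hosts listed.

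SLC4A7, the electroneutral sodium bicarbonate cotransporter NBCn1, gave the most circles of any member, 6. They summed to 85, 47 and 38 reads in control and 56, 58 and 45 in cadmium libraries, or 330 ± 79.8 and 390 ± 84.0 CPM, and overlapped. The leading circle, exons 3 to 4 of SLC4A7-201 (hsa_circ_0006215, chr3:27437388-27448797, minus strand), had 37, 13 and 0 reads in control and 32, 30 and 29 in cadmium libraries. As a share of the gene's reads it was 43.5%, 27.7% and 0% in control and 57.1%, 51.7% and 64.4% in cadmium libraries. The circle of exons 8 to 12 (hsa_circ_0002901) had 9, 7 and 8 reads in control and 5, 3 and 2 in cadmium libraries, and all cadmium libraries were below all control libraries. Neither passed the test (edgeR adjusted p 0.712 and 0.735).

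The 0 of the leading SLC4A7 circle stood among libraries with 13 to 37 reads. A 0 in at least 1 library was listed for 38 of the 102 circles (37.3%, against 38.2% of all circRNAs). For 3 of these the libraries above 0 averaged at least 10 reads: the SLC4A7 circle, hsa_circ_0067772 of SLC33A1 (0 in cadmium library 3) and the SLC7A1 circle (0 in cadmium library 2). Whether such a 0 is an absent circle or a circle missed by the caller was not tested.

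**Figure D4:**
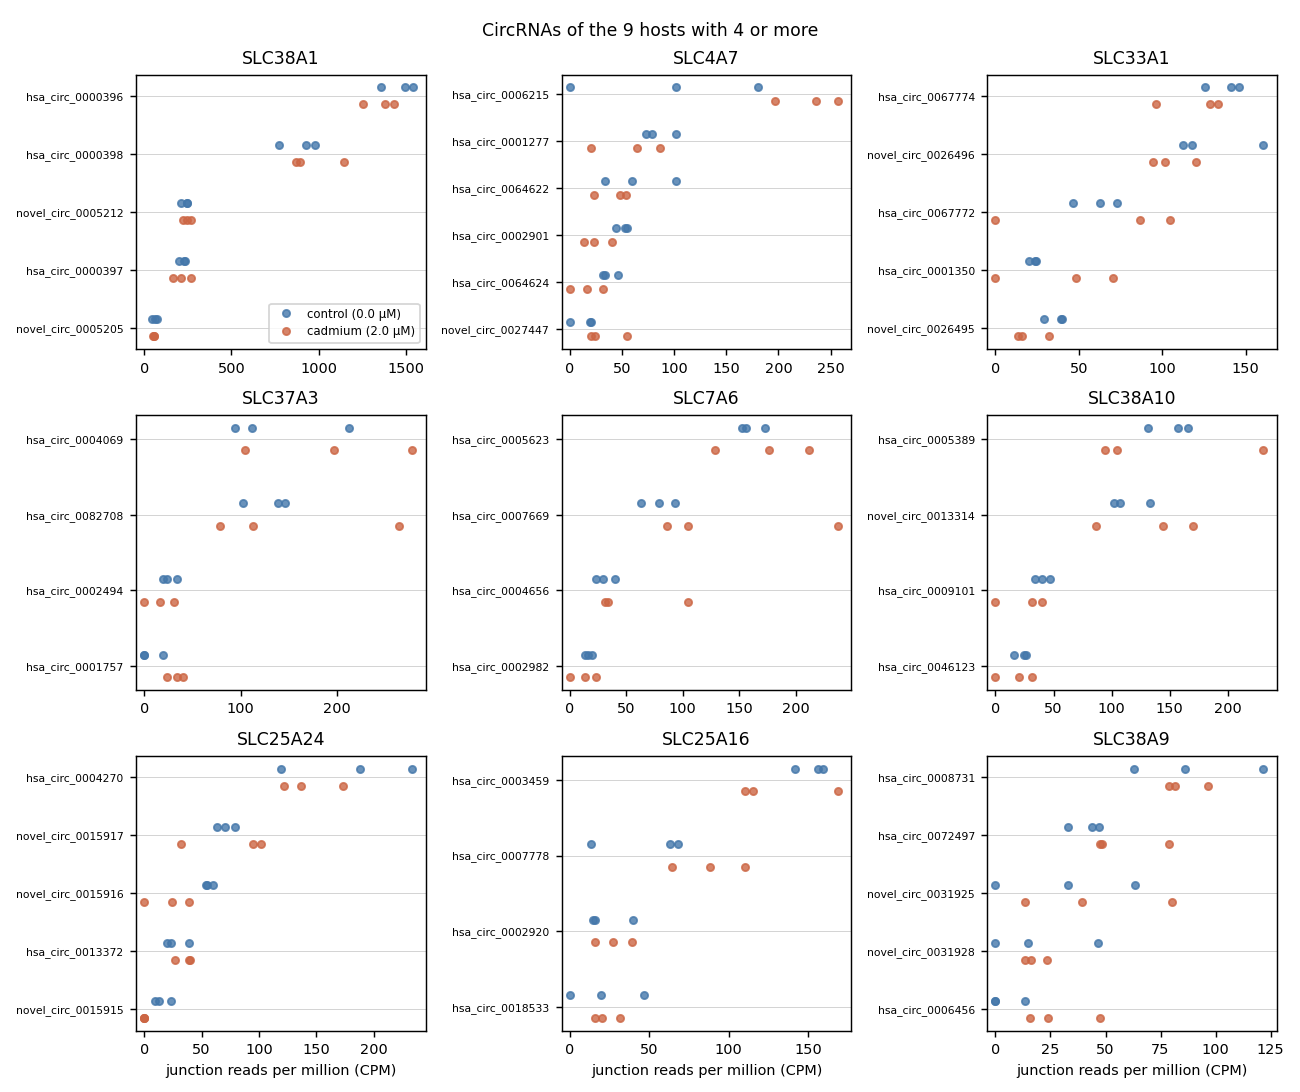
CPM of each circRNA in each library for the 9 hosts with 4 or more circRNAs, 1 panel per host with its own linear axis. The same 2 SLC38A1 circles lead in all libraries, while the leading SLC4A7 circle is at 0 in 1 control library and SLC33A1 has 2 circles at 0 in a cadmium library.

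Metal ion transporters were sparsely covered. SLC11A2 (DMT1) had a circle of exons 2 to 3 (hsa_circ_0008802, chr12:51008476-51010766, minus strand) with 4, 0 and 0 reads in control and 2, 4 and 4 in cadmium libraries, too few to be tested. SLC31A1, the copper importer CTR1, had 2 circles that sum to 2, 7 and 3 reads in control and 12, 3 and 11 in cadmium libraries. Its groups overlapped, and its log2 fold change of 1.31 (SE 0.72, edgeR adjusted p 0.493) ranged from 0.24 without control libraries 1 and 3 to 2.13 without control library 2. The magnesium transporter SLC41A2 had 22, 23 and 10 reads in control and 11, 5 and 11 in cadmium libraries, which overlapped, with a log2 fold change of -0.76 (SE 0.45, edgeR adjusted p 0.523). This was -0.38 without control library 2 and -1.40 without control libraries 1 and 3.

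Mitochondrial carriers of the SLC25 family numbered 8 hosts, of which 5 of 7 tested were above 0. SLC25A24, the calcium-regulated exchanger of ATP-magnesium for phosphate, led with 336 ± 52.2 and 268 ± 66.7 CPM. Its log2 fold change was -0.34 (SE 0.23, edgeR adjusted p 0.591), or -0.56 without cadmium library 2, and the groups overlapped. SLC25A16 had 235 ± 23.0 and 260 ± 21.4, and SLC25A26, which imports S-adenosylmethionine, had 160 ± 25.5 and 184 ± 39.3, with overlap in both. In SLC25A13, the aspartate-glutamate carrier citrin, the circle of exons 5 to 11 (hsa_circ_0081183) was listed with 5, 4 and 5 reads in control and 0 in all cadmium libraries. The other SLC25A13 circle (novel_circ_0036284), which is intronic, had 8, 9 and 10 reads and then 8, 6 and 8.

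Of the remaining classes, SLC33A1, the acetyl-CoA transporter of the endoplasmic reticulum, led with 5 circles and 371 ± 35.8 and 337 ± 88.8 CPM. The choline transporter-like SLC44A2 had 83.9 ± 4.96 and 92.3 ± 7.41 CPM, and its circle of exons 17 to 20 (hsa_circ_0049303) gave 52.9%, 66.7% and 53.8% of its reads in control and 83.3%, 69.2% and 100% in cadmium libraries. The fatty acid transporter SLC27A4 had 4, 5 and 5 reads and then 11, 4 and 6. Among nucleotide sugar transporters, SLC35D2 had 142 ± 29.8 and 165 ± 69.7 CPM with overlap, and SLC35F5 had 53.8 ± 14.5 and 85.5 ± 26.4 without, on 6 to 15 reads a library (edgeR adjusted p 0.569). SLC35E2 and SLC35E2B are near-identical copies, so the split of reads between them is uncertain. SLCO3A1, an organic anion transporter, had 16, 7 and 7 reads in control and 0, 8 and 0 in cadmium libraries, a log2 fold change of -1.53 (SE 0.91, edgeR adjusted p 0.527). It ran from -0.91 without cadmium library 3, 1 of those at 0, to -6.22 without cadmium library 2, the one above 0.

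At the level of single circles, 63 of the 102 passed the filter, and none rose or fell (edgeR quasi-likelihood test, adjusted p under 0.05 over 6182 circRNAs), where 0.0809% of all circRNAs did, all 5 lower. An unadjusted p under 0.05 was reached by 3 of the 63 (4.76%, against 8.3% of all), those of SLC2A13, SLC15A4 and SLC12A9 given above, and in DESeq2 by 1. Groups that did not overlap were found for 12 (19.0%), 6 higher and 6 lower, against 15.4% of all (7.41% higher and 7.94% lower). The lowest adjusted p was 0.398, for the SLC2A13 circle.

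Circles listed in 1 group only were few. Of the 102, 4 were at 0 in all cadmium libraries (3.92%, against 2.15% of all circRNAs): hsa_circ_0081183 of SLC25A13, novel_circ_0039731 of SLC25A14, novel_circ_0015915 of SLC25A24 and novel_circ_0003852 of SLC41A2, each with 2 to 6 reads per control library. At 0 in all control libraries were 2 (1.96%, against 0.943%). One was the only circle of SLC22A15, of the organic cation and zwitterion transporter family (hsa_circ_0008478, exons 3 to 4, with 6, 3 and 5 reads in cadmium libraries). The other was the shorter SLC31A1 circle (hsa_circ_0088128, exons 2 to 3, with 2, 3 and 3). These 6 were too low for the test, and the listing rule makes any such circle present in every library of the other group.

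More than 1 circle came from 25 of the 51 hosts, and 57 of their 76 circles shared an end with another circle of the same gene, 41 the upstream end and 33 the downstream end. A single circle was listed for 51.0% of the solute carrier hosts and 45.7% of all hosts. The share of the leading circle within its host did not overlap between the groups for 6 of 23 tested hosts with 2 or more circles (26.1%, against 15.8% of 1982 such hosts). They were SLC4A7, SLC38A9 and SLC44A2, given above, together with SLC20A2, SLC25A13 and SLC31A1. For SLC38A9 the nearest libraries lay at 40.6% (control library 3) and 40% (cadmium library 3). In SLC25A13 and SLC31A1 the other circle is among those listed in 1 group only, so these hosts repeat that observation. For SLC20A2 the share was 83.3%, 88.9% and 86.5% in control and 91.3%, 100% and 91.7% in cadmium libraries. In all but SLC4A7 and SLC38A9 the second circle had at most 8 reads in any library.

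The deposited annotation also counts reads of each locus that do not cross the junction, for 64 of the circles in every library. The junction share is given here as the junction reads counted at both ends over that number plus the non-junction reads. Over these circles it was 51.1%, 36.7% and 55.2% in control and 41.6%, 40.4% and 35.1% in cadmium libraries, so control libraries 1 and 3 were above the other 4. The groups overlapped, and the difference of -8.64 percentage points became 2.36 points without control libraries 1 and 3. How far this measure moves with the values above was not tested.

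**Figure D5:**
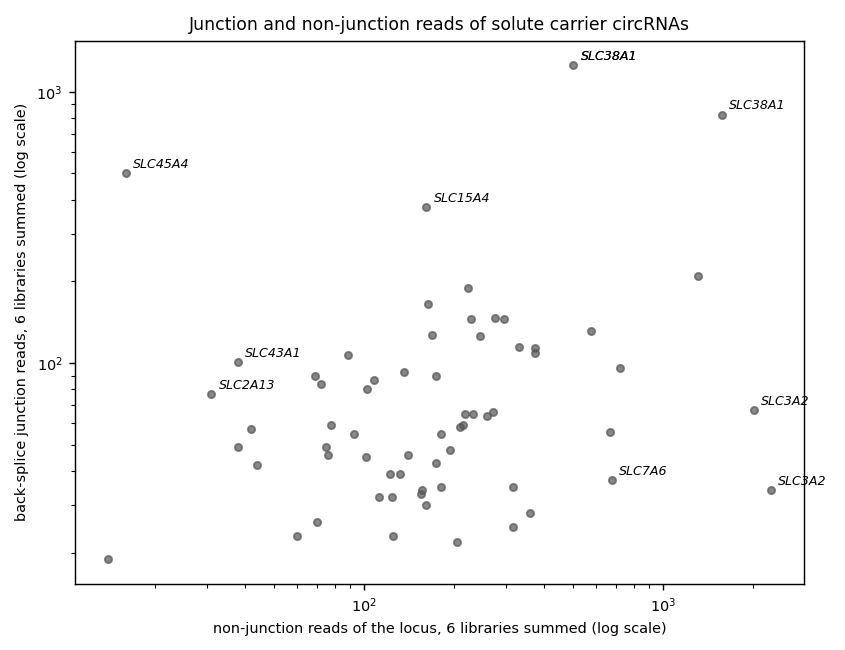
Back-splice junction reads against non-junction reads of the locus for 64 solute carrier circRNAs, 6 libraries summed, both axes on a log scale, with the hosts of the extreme circles named. SLC45A4 lies far to the left for its junction reads (501 and 16 non-junction reads), and the SLC3A2 circles lie to the right.

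Circles differed far more in this share than libraries did. The share ran from 2.88% to 98.4% with a median of 40.2%. The SLC45A4 circle was the highest, with 501 junction and 16 non-junction reads, and those of SLC43A1 (84.2%), SLC2A13 (83.2%), the main SLC38A1 circle (83.3%) and the SLC15A4 circle of exon 2 (82.2%) followed. SLC38A1 spanned a wide range within 1 gene, since hsa_circ_0000398 had 51.0% on 823 junction reads and novel_circ_0005212 had 24.2% on 209.

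Transporters outside the rule were counted in the same fit. Carriers that belong to the solute carrier series under other symbols (12 hosts, 8 tested) had 6 values below 0 and a median of -0.20, and their summed level of 2417 ± 224 CPM in control and 2119 ± 90.3 in cadmium libraries did not overlap. The zinc transporters left out by the rule (7 hosts, 6 tested) had a median of -0.02 and 718 ± 84.4 and 621 ± 29.5 CPM, with overlap. ATP-driven pumps and flippases (17 hosts, 15 tested) had a median of -0.01. All 8 ABC transporter hosts were above 0, with a median of 0.34 and overlapping sums of 2264 ± 319 and 2786 ± 324 CPM. None of the hosts in these 4 lists was called, and the difference between any list and the 40 solute carriers was not tested.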

How the data were processed

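Members, role classes, lists and named genes were chosen with earlier results of these data known. Named hosts had an unadjusted edgeR p under 0.05, were among the 3 most abundant of a class, were tested metal ion transporters, SLC7A11, SLC20A1 or SLC20A2, or had 4 or more circRNAs. Named circRNAs had such a p, led a named host, were among the 5 most abundant, or came from a host with 4 or more. Other names (SLC22A15, SLC1A4, SLC9A8 and the remaining ones) were chosen after the values were seen.

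The authors' deposited counts are whole numbers, the reads across each circle's back-splice in each library, per the file headers. The authors' deposited TPM values were used only in 1 alternative. The submitters' processing notes name DESeq 1.10.1, Bowtie and Bowtie2 2.2.8 and the build hg19 without saying what each did. The name of the circle caller was not given in the sources used here. Positions follow GRCh38: 95.0% of the members' starts and 98.0% of their ends lie on exon bounds of GENCODE 29. They are counted from 1. Each circle has 1 junction, so reads were not divided by length. Exons listed in the deposited annotation were often incomplete, so exon numbers come from GENCODE transcripts.

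Counts of the 6 libraries were fitted with edgeR 4.0.16 in R 4.3.3 (quasi-likelihood test, robust, TMM factors, filterByExpr with minimum count 5 and minimum total 15, Benjamini-Hochberg threshold 0.05), over all circRNAs and over host sums, and members were read from these fits. The SE was worked back from the F statistic, whose root is the log2 fold change divided by its SE. Intervals are 95% Wilson intervals. They cover counting error of reads only. Reads carry no molecular identifiers, so copies of the same molecule could not be told apart and count as separate reads. The code was tested on simulated data. Alternatives were RLE size factors, library totals, no or a stricter filter (minimum count 10, total 30), DESeq2 1.42.0, a block on replicate number, limma 3.58.1 on log2(TPM + 1) and leaving out each library. Leaving out SLC4A1AP from its class and control libraries 1 and 3 together were added after seeing the data. The latter assumes that the remaining control library varies like the others. Values of 2 tested member hosts are not reported here, though the counts over members include them.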

Additional observations from a re-analysis of the deposited data

How the results depend on the processing

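No solute carrier host or circRNA passed the threshold in any alternative run, and the number with an unadjusted p under 0.05 ran from 1 (DESeq2) to 7 hosts (no filter) and from 1 (DESeq2) to 11 circRNAs (no filter). Of 68 named hosts and circRNAs with a fold change, 47 kept their sign in every alternative and 21 did not. Under 100 reads over the 6 libraries stood behind 32 of the 51 hosts and 83 of the 102 circRNAs, and whether depth bears on the number of calls was not tested.

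Over all hosts, the 7 calls became 11 with DESeq2, 4 with limma, 3 without control replicates 1 and 3 together and 3 to 13 when 1 library was left out. The lowest value, 3, came without control replicate 1 or cadmium replicate 2, and 13 came without cadmium replicate 3. Over all circRNAs, the 5 calls became 3 without control replicates 1 and 3 together and 0 to 13 when 1 library was left out, with 0 without control replicate 1 and 13 without control replicate 2 (with 416 circRNAs at an unadjusted p under 0.05 in the first). The cause was not tested.

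With the replicate number as a block there were 6 calls over all hosts and 4 over all circRNAs. Over hosts, deviations of same-numbered libraries from their group means correlated at 0.01, 0.00 and 0.08 for replicates 1, 2 and 3. Differently numbered libraries gave -0.05 to 0.04, so the value of replicate 3 was the highest. All of these were small, and the numbers were not taken to pair the libraries.

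The share of junction reads taken by the members differed by 0.0571 points without the most abundant member, and the junction share of locus reads by 2.36 points without control replicates 1 and 3. With other settings than 1 library left out, the sign turned for SLC38A1 (RLE size factors 5.71e-05, library totals 0.00961, limma 0.00745, without control replicates 1 and 3 0.0164), hsa_circ_0005623 (-0.00274 without control replicates 1 and 3), hsa_circ_0008731 (0.43 likewise), hsa_circ_0088129 (limma -0.44, without control replicates 1 and 3 -0.29), novel_circ_0015917 (limma -0.0351) and hsa_circ_0067772 (no filter -0.0194, limma -1.47, replicate block -0.15, without control replicates 1 and 3 -0.0345).

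When 1 library was left out, the log2 fold change of these hosts turned sign: SLC15A4 (-0.28 to 0.0393), SLC33A1 (-0.28 to 0.0573), SLC35E2 (-0.20 to 0.47), SLC38A1 (-0.0562 to 0.0580) and SLC38A10 (-0.28 to 0.13). So did that of hsa_circ_0000397 (-0.27 to 0.11), hsa_circ_0000398 (-0.0343 to 0.18), hsa_circ_0000462 (-0.16 to 0.30), hsa_circ_0003012 (-0.49 to 0.30), hsa_circ_0003101 (-0.40 to 0.30), hsa_circ_0005389 (-0.60 to 0.15), hsa_circ_0005623 (-0.0811 to 0.26) and hsa_circ_0008731 (-0.32 to 0.20). The others were hsa_circ_0009314 (-0.23 to 0.49), hsa_circ_0067772 (-0.58 to 0.61), hsa_circ_0082708 (-0.46 to 0.52), novel_circ_0005205 (-0.29 to 0.0225), novel_circ_0005212 (-0.00166 to 0.12), novel_circ_0015917 (-0.14 to 0.46) and novel_circ_0031925 (-0.42 to 1.29).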
